A study of Mus musculus with 8 samples.

Results

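In ATAC-seq the transposase Tn5 cuts chromatin that is not closely packed, and a peak caller lists the intervals where cuts exceed the surrounding genome. The regions described here were detected in some but not all of 8 such peak lists: the strongest 53864 intervals of each list by the deposited −log10 p were merged wherever they overlapped by 1 bp or more, and autosomal regions with an interval from 4, 5, 6 or 7 libraries were taken. They were 421 of 404918 merged regions, of which 192 had intervals from 4 libraries, 83 from 5, 80 from 6 and 66 from 7. They were chosen by detection and −log10 p over all libraries, with no use of the groups. Their number, detection and strength are therefore given as descriptions, apart from a contrast of the groups in strength where detected. The libraries came from neurons of the amygdala of male C57BL/6J mice. In the 4 sgNr2f2 mice an adeno-associated virus (AAV) carried a guide RNA against Nr2f2, and in the 4 sgRosa mice a control guide against the Rosa26 locus. Both groups had over 2 weeks of expression, restraint in a tube on 7 days, fear conditioning on 1 day and extinction sessions on 3 days, so no unstressed mice are among them. Magnetic separation enriched the neurons. The labels used here name no nuclease, no promoter that drives the guide and no step that separates transduced from other neurons, and they give 1 library a mouse.

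Nr2f2 encodes COUP-TFII, an orphan nuclear receptor that binds DNA and is best known as a repressor of transcription. Accessible chromatin of neurons lies at promoters, which stay open in many cell types, and at enhancers, which are more particular to a cell type and often lie in introns or between genes. Peak lists also hold intervals in repeated sequence, where reads from several copies can collect. No such sites were excluded here, and how reads with several matches were treated is not given in the sources used here.

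Of the 421 regions, 33 lay within 1 kb of the start of a protein-coding gene, and 15 of these overlapped a RefSeq promoter window, 250 bases before to 50 after a start (17 windows of 16 genes, GRCm38.p6, the assembly of mm10). The following windows are shown because their regions stand for the range of detection at gene starts: in 7 libraries (Pfdn2, a subunit of the chaperone prefoldin), in 5 (Trim45, a ubiquitin ligase of the TRIM family, and Hdgfl2, a chromatin-binding PWWP protein), in 4 with the highest ranks of any promoter window (Pdzd8, a protein of the endoplasmic reticulum membrane), and in 4 sgRosa libraries only (Ppp2r1a, the scaffold subunit of protein phosphatase 2A). Capitals mark every match, on either strand, to any of 6 short motifs. These were GGGCGG (the GC box of SP1), CCAAT (the motif of the factor NFY), TATAAA (the TATA box), TGACGTCA (the cAMP response element, CRE), TGACG (its shorter core) and AGGTCA (the core element of nuclear receptors).
Pfdn2, chr1:171344704-171345003, plus strand: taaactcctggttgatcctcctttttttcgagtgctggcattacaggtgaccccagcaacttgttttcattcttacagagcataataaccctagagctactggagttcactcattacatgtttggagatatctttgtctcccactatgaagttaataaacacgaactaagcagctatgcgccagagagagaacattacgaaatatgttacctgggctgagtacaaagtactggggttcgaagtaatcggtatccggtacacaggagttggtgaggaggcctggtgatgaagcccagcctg
Trim45, chr3:100922243-100922542, plus strand: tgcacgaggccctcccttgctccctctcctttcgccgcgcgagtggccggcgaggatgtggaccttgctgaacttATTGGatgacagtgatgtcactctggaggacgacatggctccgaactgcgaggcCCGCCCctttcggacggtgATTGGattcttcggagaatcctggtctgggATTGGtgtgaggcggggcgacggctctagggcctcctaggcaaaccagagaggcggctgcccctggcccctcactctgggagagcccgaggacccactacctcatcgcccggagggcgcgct
Hdgfl2, chr17:56079381-56079680, plus strand: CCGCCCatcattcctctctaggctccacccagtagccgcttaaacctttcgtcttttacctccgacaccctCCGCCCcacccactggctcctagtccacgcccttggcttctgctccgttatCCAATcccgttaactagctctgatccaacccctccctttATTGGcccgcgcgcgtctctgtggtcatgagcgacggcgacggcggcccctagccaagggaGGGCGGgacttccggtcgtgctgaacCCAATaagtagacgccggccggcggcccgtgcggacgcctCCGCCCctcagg
Pdzd8, chr19:59345731-59346030, minus strand: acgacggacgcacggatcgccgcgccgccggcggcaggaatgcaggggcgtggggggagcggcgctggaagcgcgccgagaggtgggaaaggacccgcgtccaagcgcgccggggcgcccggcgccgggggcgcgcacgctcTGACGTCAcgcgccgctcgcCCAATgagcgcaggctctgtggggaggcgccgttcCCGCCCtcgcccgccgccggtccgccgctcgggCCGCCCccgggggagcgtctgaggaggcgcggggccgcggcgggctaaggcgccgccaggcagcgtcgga
Ppp2r1a, chr17:20945204-20945503, plus strand: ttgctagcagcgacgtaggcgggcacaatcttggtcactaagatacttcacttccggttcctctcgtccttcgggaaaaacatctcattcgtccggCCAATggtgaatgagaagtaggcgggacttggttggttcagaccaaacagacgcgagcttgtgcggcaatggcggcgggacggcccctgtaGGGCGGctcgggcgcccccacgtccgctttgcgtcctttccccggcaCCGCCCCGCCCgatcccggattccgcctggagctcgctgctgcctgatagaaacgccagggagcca

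The Pfdn2 window held none of these motifs, whereas Hdgfl2 held 4 GC boxes and 3 CCAAT matches, Ppp2r1a 3 GC boxes and 1 CCAAT match, and Pdzd8 the only CRE. Over the 17 windows, 11 (64.7%) held GGGCGG, against 47.0% of all 20062 autosomal protein-coding windows, and 10 (58.8%) held CCAAT, against 38.1%. TATAAA was in 1 window (5.88%, against 12.7%), TGACGTCA in 1 (5.88%, against 2.30%) and TGACG, which lies within TGACGTCA, in 4 (23.5%, against 23.9%). No window held AGGTCA, which 14.7% of all windows held. The median GC content was 60.3%, against 57% of all windows, and the median ratio of observed to expected CpG was 0.794, against 0.585. The 17 windows include 2 of Zfp317 and the overlapping pair of Hdgfl2 and Ubxn6, so they are not 17 separate sequences.

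The lists behind the regions differed in length, with 103939, 97620, 63213 and 53864 intervals in sgNr2f2 libraries 1 to 4 and 63648, 62348, 60880 and 143405 in sgRosa libraries 1 to 4. The weakest interval kept had a −log10 p of 3.48, 3.16, 2.84 and 2.00 in the sgNr2f2 libraries and 2.86, 2.77, 2.68 and 3.70 in the sgRosa libraries. Without read totals in the lists, depth is unknown, and the peak values are not scaled between libraries. A library's strength at a region is therefore given as the rank percentile of its strongest interval there within its kept list, where 100 is the strongest of the 53864.

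The regions lay between the regions of 3 and of 8 libraries in strength. Their intervals had a median rank percentile of 92.6, against 49.4 for the regions of 1 library and 99.8 for those of 8. The median −log10 p of their intervals was 5.58, with a median enrichment of 3.15-fold over background as the authors' peak caller gave it. By number of detecting libraries the median was 4.63, 5.56, 5.89 and 7.69 for 4, 5, 6 and 7 libraries, against 4.00 for 3 and 23.7 for all 8. A deposited q under 0.05 was given to 42.6%, 61.0%, 65.4% and 80.1% of the intervals for 4, 5, 6 and 7 libraries, against 21.8% for 3 and 96.7% for 8. Of the 421 regions, 376 had at least 1 such interval, 80 had one in every detecting library and 45 had none. The merged regions were 160 to 1671 bp wide (median 385 bp), and 79 joined several intervals of the same library.

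**Figure D1:**
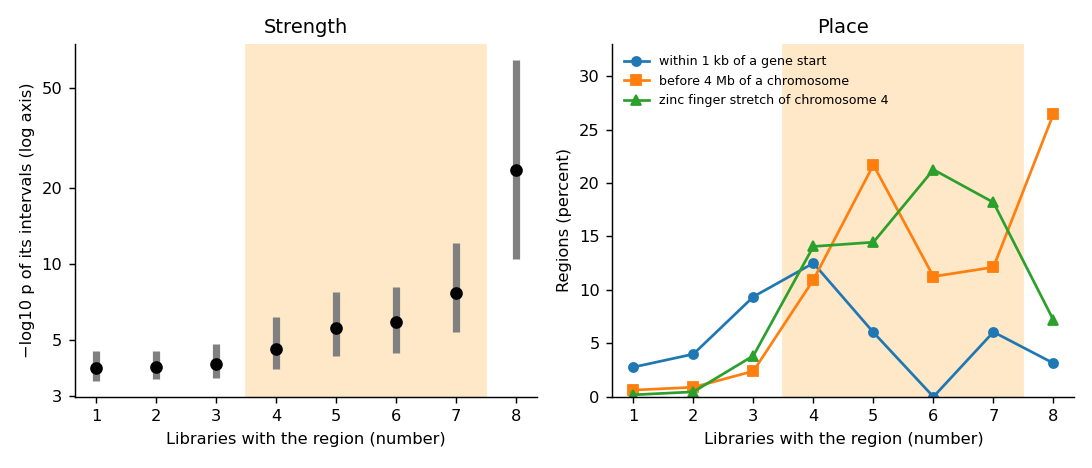
Left, the median (point) and quartiles (bar) of the deposited −log10 p of intervals, on a log axis, by the number of libraries with the region; right, the percent of regions at gene starts, before 4 Mb of a chromosome and in the zinc finger gene stretch of chromosome 4. The shaded classes of 4 to 7 libraries climb from a median of 4.63 to 7.69, while gene starts peak at 12.5% in 4 libraries and the stretch at 21.3% in 6.

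At the lower edge of the selection, 2 regions of 4 libraries had the highest mean rank percentile over their detecting libraries (99.6 and 99.5). The first, chr13:9012055-9012229, had a −log10 p of 14.8 and 16.97 in sgNr2f2 1 and 4 and 14.0 and 8.76 in sgRosa 2 and 4. Every library that missed it, sgNr2f2 2 and 3 and sgRosa 1 and 3, had a kept interval 165 bp away. These intervals had a −log10 p of 143.4, 233, 282.4 and 243.7, so the region lay beside a much stronger peak. The second, chr8:71819384-71819707, had 9.41, 18.1 and 8.31 in sgNr2f2 1 to 3 and 11.4 in sgRosa 1. Of the libraries that missed it, sgRosa 3 had a kept interval 333 bp away. In sgNr2f2 4, sgRosa 2 and sgRosa 4 the nearest was 7058, 6779 and 15686 bp away. Just outside, the regions of 3 libraries with the highest mean (99.6 and 99.5) were chr18:82170457-82170647, with 11.3 in sgNr2f2 3 and 13.0 and 9.33 in sgRosa 1 and 4, and chr5:97782245-97782404, with 15.4 and 10.4 in sgNr2f2 3 and 4 and 9.08 in sgRosa 1. At the upper edge, the regions of 7 libraries with the lowest mean (66.5 and 69.8) were chr3:3029943-3030489, at a −log10 p of 3.24 to 5.53, and chr4:145559270-145560031, at 3.45 to 6.42. The regions of 8 libraries with the lowest mean (79.5 and 82.1) were chr4:146739598-146740105, at 3.48 to 8.31, and chr17:23519781-23520248, at 3.54 to 7.94. The −log10 p values on the 2 sides of each edge overlapped.

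The libraries detected the regions in unlike numbers. The sgNr2f2 libraries 1 to 4 had intervals in 271, 261, 286 and 275 of the 421, and the sgRosa libraries 1 to 4 in 296, 235, 281 and 220. The 4 sgNr2f2 values lay inside the range of the sgRosa values, with means of 273.25 ± 10.3 and 258 ± 36.3 (SD, n = 4 each). As detection chose the regions, no test is given for this difference. The 66 regions of 7 libraries were missed once each, by sgNr2f2 1 to 4 in 8, 6, 5 and 4 cases and by sgRosa 1 to 4 in 8, 12, 8 and 15 cases. sgRosa 4 and sgRosa 2 thus missed the most at this level and over all 421.

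**Figure D2:**
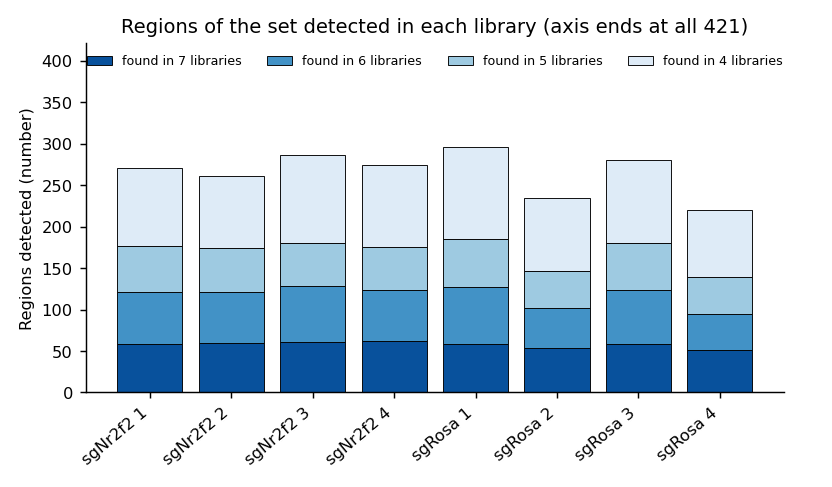
Number of the 421 regions with a kept interval in each library, sgNr2f2 left of sgRosa, stacked by how many libraries detected the region. The bars run from 220 in sgRosa 4 to 296 in sgRosa 1, and the sgNr2f2 bars lie between them.

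A missed region was seldom present as a weaker peak of the same library. Of 1243 pairs of a region and a library that missed it, 114 had a peak in the library's full list, below the kept part. The shares were 20% of 150, 11.25% of 160, 5.19% of 135 and 0% of 146 missed regions in sgNr2f2 1 to 4, and 4% of 125, 4.84% of 186, 2.14% of 140 and 20.9% of 201 in sgRosa 1 to 4. They were highest in the 3 longest lists, and sgNr2f2 4 is at 0 by construction, because its full list is its kept list. For regions of 3 libraries the same shares were 4.77%, 4.11%, 1.04% and 0% in sgNr2f2 1 to 4 and 0.572%, 1.16%, 0.262% and 5.37% in sgRosa 1 to 4. With the full lists, 14 of the 421 regions had a peak in all 8 libraries. A kept interval of the missing library lay within 500 bp of the region in 240 of the 1243 pairs (19.3%).

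Strong regions were missed too, some of them close beside a kept interval of the missing library. The 10 regions of 7 libraries with the highest mean rank percentile each had a −log10 p of at least 7.54 in every detecting library, and none had a peak in the missing library's full list. The first was chr2:98665060-98665225, with a −log10 p of 130, 96.0, 112 and 121 in sgNr2f2 1 to 4 and 169, 124 and 129 in sgRosa 1 to 3. It was missing in sgRosa 4, whose nearest kept interval began 957 bp away and had a −log10 p of 2433. Its fold enrichment was 2.17 to 2.46 in the 7 libraries, below the median of 3.15-fold. Over 15 regions with a −log10 p of at least 8 in every detecting library, 7 were in 7 libraries, 4 in 6, 2 in 5 and 2 in 4, and none had a peak in all 8 full lists.

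Of the other 9, 5 lay inside protein-coding genes and 4 over 5 kb from any gene. At chr1:153626531-153626690, which is 26347 bp from the start of Rgs8, a gene for a regulator of G protein signalling, the −log10 p was 21.5, 18.6, 23.7 and 23.0 in sgNr2f2 1 to 4 and 40.6, 13.5 and 31.1 in sgRosa 1, 3 and 4. sgRosa 2 missed it, and its nearest kept interval was 48223 bp away. Within Plcl2, which encodes a phospholipase C-like protein, chr17:50570303-50570544 had 12.6, 19.1, 8.31 and 18.4 in sgNr2f2 1 to 4 and 13.8, 21.7 and 16.1 in sgRosa 1 to 3. sgRosa 4 missed it and had no kept interval within 38583 bp. Within Arrdc3, an arrestin domain gene, chr13:80894563-80894738 was also missed by sgRosa 2, with 8.67, 10.04, 8.31 and 9.65 in sgNr2f2 1 to 4 and 21.9, 12.8 and 8.46 in sgRosa 1, 3 and 4. The others were chr2:90395076-90395256, 5384 bp from the olfactory receptor gene Olfr1274 (missed by sgRosa 2), chr16:3115408-3115822 (missed by sgRosa 1) and chr19:61264264-61264530 (missed by sgRosa 4), and regions in Sfi1 at chr11:3169412-3169628 (missed by sgRosa 4), Taco1 at chr11:106066611-106066886 (missed by sgRosa 2) and LOC100504180 at chr10:58225203-58225644 (missed by sgRosa 1). Sfi1 encodes a centrosome protein and Taco1 an activator of translation in mitochondria. The nearest kept interval of the missing library was 425 bp away at the chromosome 16 region, with a −log10 p of 44.0. It was 347 bp away at the chromosome 19 region, 706 bp at LOC100504180, 2093 bp at Sfi1 and 5131 bp at Arrdc3. At Taco1 it was 31092 bp away, and at the region near Olfr1274 114423 bp. All 10 were missed by a sgRosa library, as were 43 of the 66 regions of 7 libraries, and ranking by strength chose the 10. In the 66, the nearest kept interval of the missing library was a median of 2.04 kb away, within 500 bp in 22 cases and over 10 kb away in 19.

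**Figure D3:**
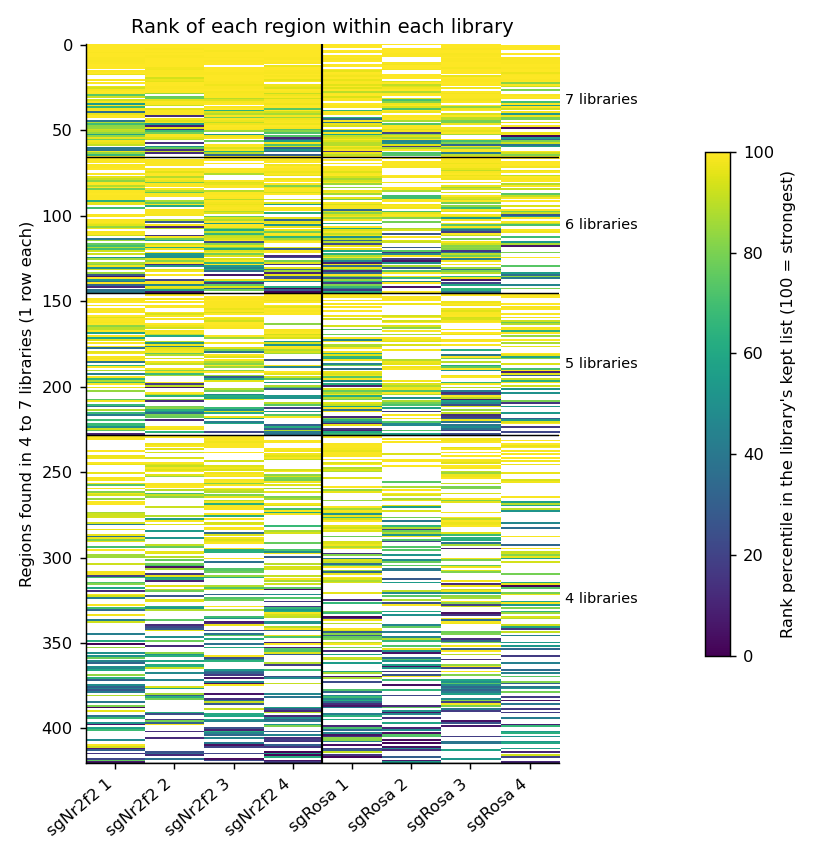
Rank percentile (colour, 100 = strongest) of each of the 421 regions (rows, ordered within a class by strength) in each library (columns, sgNr2f2 left), with white where the library has no kept interval. The regions of 7 libraries are mostly near the top ranks, and white gaps stand beside top ranks in every class.

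Few regions were detected in 1 group only, and more leaned to sgNr2f2 than to sgRosa. More sgNr2f2 than sgRosa libraries had the region in 168 cases, fewer in 126 and equally many in 127. Among the 192 regions of 4 libraries, 90 were in 2 of each group, 48 in 3 sgNr2f2 and 1 sgRosa, 46 in 1 and 3, and 4 each in 1 group only. Of 5 libraries, 36 were in 3 and 2, 9 in 4 and 1, 31 in 2 and 3, and 7 in 1 and 4. Of 6 libraries, 28 were in 4 and 2, 37 in 3 of each and 15 in 2 and 4. Of 7 libraries, 43 were in 4 and 3 and 23 in 3 and 4. The part of sgRosa 2 and sgRosa 4, which missed the most regions, in this lean was not tested. A pair of libraries of 1 group shared 165.9 of the 421 regions on average (113 to 195, 12 pairs) and a pair from both groups 161.1 (129 to 200, 16 pairs). Pairs share libraries, so no test was made of these averages.

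The groups' rank percentiles did not overlap at 17 of the 421 regions, with a missing interval set at 0. In 10 (2.38%) all sgNr2f2 libraries ranked the region higher than all sgRosa libraries, and in 7 (1.66%) all ranked it lower. Over all 404918 regions the counts were 15 (0.0037%) and 10 (0.00247%), but only a region in 4 or more libraries can meet this condition, and of those 644 regions 2.33% and 1.55% did. Of the 223 regions in all 8 libraries 2.24% and 1.35% did, so the 421 regions stood near the background.

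**Figure D4:**
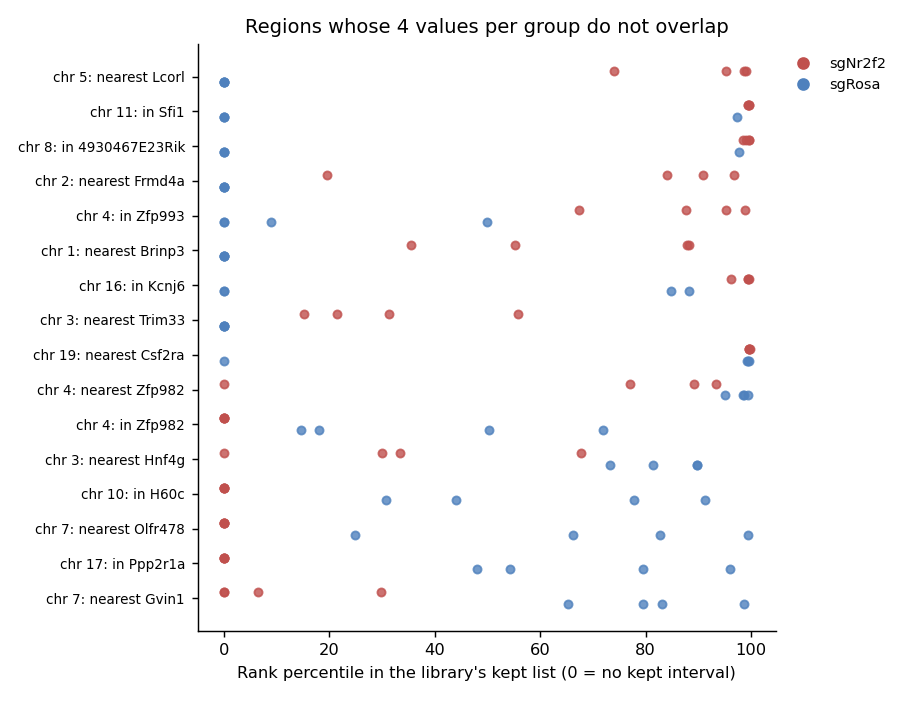
Rank percentile in each library (points, sgNr2f2 above sgRosa in each row, 0 where there is no kept interval) at 16 of the 17 regions whose groups do not overlap, ordered by the difference of group means. The upper 9 rows are higher in sgNr2f2 and the lower 7 lower, and most of the separation at the ends comes from missing intervals.

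Among the 10 ranked higher in sgNr2f2, the 5 with the largest difference of group means all lay over 5 kb from a gene start. At chr5:46142048-46142210 (nearest start Lcorl, a gene associated with body size in mammals), the rank percentiles were 74.0, 99.1, 98.7 and 95.2 in sgNr2f2 1 to 4 and no sgRosa library had an interval. In Sfi1, chr11:3194010-3194298 had 99.6, 99.5, 99.6 and 99.4 in sgNr2f2 1 to 4, and 97.4 in sgRosa 3 alone. In the gene 4930467E23Rik, chr8:19707436-19707783 had 98.4, 99.04, 99.6 and 99.5 in sgNr2f2 1 to 4, and 97.8 in sgRosa 3 alone. At both of these, the separation rests on the 3 sgRosa libraries without an interval. At chr2:3964436-3964661 (nearest start Frmd4a, a cell polarity gene) the sgNr2f2 values were 19.5, 96.8, 84.0 and 90.9, and no sgRosa library had an interval. In Zfp993, a zinc finger gene, chr4:146739122-146739425 had 87.7, 98.8, 67.3 and 95.3 in sgNr2f2 1 to 4, against 8.92 and 49.95 in sgRosa 1 and 2 and none in sgRosa 3 and 4. The remaining regions of 4 sgNr2f2 and 0 sgRosa libraries, chr1:145955681-145956239 (35.5, 88.3, 87.9 and 55.3) and chr3:103373503-103373887 (15.2, 31.3, 21.4 and 55.8), were mostly of middle to low rank. The 4 such regions are 0.000988% of all, but only a region of exactly 4 libraries can be split in this way. They are 4 of those 192. In the full lists 1 sgRosa library each had a weaker peak at chr2:3964436-3964661 and chr1:145955681-145956239. In Kcnj6, which encodes the potassium channel subunit GIRK2 and was named here after its values were seen, chr16:94812625-94812925 had 99.6, 99.4, 96.3 and 99.3 in sgNr2f2 1 to 4, against 84.8 and 88.3 in sgRosa 1 and 4.

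Of the 7 ranked lower in sgNr2f2, 4 had no kept interval in any sgNr2f2 library. At chr7:106236622-106237331, 21282 bp from the start of Gvin1, an interferon-induced GTPase gene, the sgNr2f2 values were 6.41 and 29.8 in libraries 1 and 4 and missing in 2 and 3, against 79.6, 98.7, 65.3 and 83.0 in sgRosa 1 to 4. The Ppp2r1a promoter region, chr17:20945193-20945707, was in no sgNr2f2 library, against 96.0, 48.1, 54.3 and 79.4 in sgRosa 1 to 4. Also absent from the kept sgNr2f2 lists were chr7:108030249-108030439 near Olfr478 (66.2, 24.9, 82.7 and 99.5 in sgRosa 1 to 4), chr10:3257147-3257552 in H60c, a gene for a ligand of a natural killer cell receptor (30.7, 44.0, 77.9 and 91.3), and chr4:147452716-147453099 in Zfp982 (14.7, 72.0, 18.02 and 50.3). These 4 regions are again 0.000988% of all, and 4 of the 192 regions of 4 libraries, the only ones that can be split in this way. In the full lists 1 sgNr2f2 library had a weaker peak at the Olfr478 region, and none had one at the other 3. At chr3:3029943-3030489 the sgNr2f2 values were 67.8, 33.5 and 30.0 in libraries 1, 3 and 4, against 89.7, 73.2, 89.8 and 81.5 in sgRosa 1 to 4.

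Strength was also compared between the groups where the region was detected, which the rule had not used as a contrast but which depends on detection. The ranks compared are by −log10 p, which also chose the regions. A difference that shows as a missing interval cannot be seen in this fit, so a lack of calls does not show equal strength. Ranks within each library were turned into normal scores and fitted with limma with a trend, leaving out libraries without an interval, over the 526 regions with an interval in at least 2 libraries of each group, 303 of them in 4 to 7 libraries. limma called 0 regions higher and 0 lower at a Benjamini-Hochberg adjusted p under 0.05 (0% of 526 each), and 21 of 526 (3.99%) had an unadjusted p under 0.05, against 14 of the 303 (4.62%). With the trend and all 8 libraries the smallest adjusted p was 0.442. Without the trend limma called 1 region, and without sgNr2f2 4 it called 1 region, lower in sgNr2f2, and neither call was among the 421.

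The median rank percentile of the regions' intervals was 92.5, 92.2, 94.9 and 93.3 in sgNr2f2 1 to 4 and 90.9, 87.8, 94.7 and 90.8 in sgRosa 1 to 4. The groups overlapped through sgRosa 3, with means of 93.2 ± 1.19 and 91.0 ± 2.84 (SD, n = 4 each), and since rank by −log10 p chose the regions no test is given.

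Position was not used by the rule. In every library the regions' intervals lay at gene starts more often than its other kept intervals did, by 3.88 ± 1.70 percentage points (SD, n = 8; exact sign-flip p = 0.0078125, the smallest possible, adjusted over 2 comparisons 0.015625). The shares were 5.59%, 6.23%, 6.45% and 5.07% of the regions' intervals in sgNr2f2 1 to 4 and 9.21%, 8.66%, 4.98% and 8.33% in sgRosa 1 to 4, against 2.21% to 3.28% of the other intervals. The same regions are counted in 4 to 7 libraries, so the 8 differences are not independent and the p is too small. The difference was 0.941 points over the regions of 5 to 7 libraries, 1.78 with q under 0.05 required and 2.43 with the strongest 50% of each kept list, against 5.83 with the full lists. Between the groups the means were 5.84 ± 0.627% and 7.80 ± 1.91% (SD, n = 4 each; two-sided exact permutation p = 0.1429, adjusted over 5 group comparisons 0.5; the smallest p that 4 against 4 allows is 0.0286), with sgRosa 3 below every sgNr2f2 library. Without sgRosa 3 the difference was -2.90 percentage points, with an unadjusted exact p of 0.02857, and with q under 0.05 required it turned to 0.282. The 5 group comparisons adjusted together include the number detected and the median rank, whose own p-values are not given because the rule used those values.

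**Figure D5:**
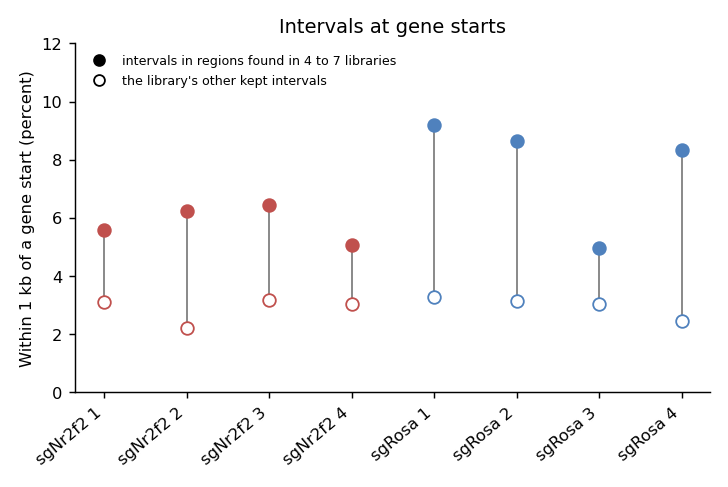
Percent of intervals within 1 kb of a protein-coding gene start in each library, sgNr2f2 (red) left of sgRosa (blue), filled for the regions in 4 to 7 libraries and open for the library's other kept intervals. The filled points lie above the open ones in all 8 libraries, between 4.98% and 9.21%.

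The 33 regions at gene starts were mostly detected in few libraries: 24 were in 4 libraries, 5 in 5, 0 in 6 and 4 in 7. That is 12.5% of the regions of 4 libraries, against 9.36% of the 1250 of 3, 2.77% of the regions of 1 and 3.14% of the regions of 8. Regions of 4 libraries are also wider than those of 1 (median 378 and 170 bp), and the part of width in these shares was not tested. The gene start regions had a median −log10 p of 4.94, against 5.62 for the other regions, and 13 were in more sgRosa libraries, 7 in more sgNr2f2 libraries and 13 in equal numbers. Their detection was 16, 17, 19 and 15 in sgNr2f2 1 to 4 and 27, 21, 15 and 19 in sgRosa 1 to 4. For 6 of the 33 the start could be either end of the gene, as the promoter table gave none.

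The 4 gene start regions of 7 libraries had different ranges of strength. At LOC100504180 and Taco1, both described above, the −log10 p was 7.54 to 23.7 and 7.65 to 24.3. Over the Pfdn2 window, which Nit1 (an amidase gene) neighbours, chr1:171344409-171345044 had 5.90, 6.23, 6.19 and 7.38 in sgNr2f2 1 to 4 and 8.35, 3.91 and 6.84 in sgRosa 1 to 3. At Ugt1a1, which encodes the enzyme that conjugates bilirubin, chr1:88211676-88212262 had 6.14, 3.52 and 6.96 in sgNr2f2 1, 2 and 4 and 5.43, 3.89, 4.81 and 5.27 in sgRosa 1 to 4. This region also lies inside 8 longer Ugt1a genes, which share their last exons with it. At Pfdn2 and Ugt1a1 the values of the detecting libraries thus overlapped between the 2 groups. The rank percentiles at Pfdn2 were 93.3 to 99.1 in sgNr2f2 and 70.3 to 99.3 in sgRosa. At Ugt1a1 they were 13.6 to 98.6 in sgNr2f2 and 50.3 to 91.9 in sgRosa.

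The gene start regions of 5 libraries had a median −log10 p of 3.90 to 6.67 over their detecting libraries. Those of 7 had 5.27 to 14.2, so the 2 ranges overlapped. Clcn4, at 6.67, was above Pfdn2 (6.23) and Ugt1a1 (5.27). At Trim45, chr3:100922028-100922503 had a −log10 p of 5.58 and 3.88 in sgNr2f2 2 and 3 and 7.06, 5.16 and 3.29 in sgRosa 1 to 3. At Hdgfl2 and Ubxn6, a cofactor gene of the ATPase p97, chr17:56078913-56079884 had 4.21 in sgNr2f2 3 and 4.94, 6.57, 3.29 and 3.84 in sgRosa 1 to 4. At Usp5, a deubiquitinase gene, chr6:124828893-124829290 had 3.88 in sgNr2f2 3 and 3.90, 4.33, 3.45 and 6.01 in sgRosa 1 to 4. The last 2 regions were in 1 sgNr2f2 and 4 sgRosa libraries. The reverse, 4 sgNr2f2 and 1 sgRosa libraries, was seen at Clcn4, a chloride and proton exchanger gene, where chr7:7300013-7300188 had 9.41, 4.33, 8.31 and 6.67 in sgNr2f2 1 to 4 and 5.25 in sgRosa 4. At Opa3, a mitochondrial protein gene, chr7:19228480-19228916 had 4.26 and 4.43 in sgNr2f2 1 and 4 and 5.67, 3.93 and 3.29 in sgRosa 1 to 3.

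Of the 24 gene start regions of 4 libraries, that of Pdzd8, chr19:59345750-59345911, was the strongest, with a −log10 p of 11.3 and 8.59 in sgNr2f2 3 and 4 and 6.84 and 15.03 in sgRosa 3 and 4. The next were at Gm5373 (6.18 to 10.2), 4931408C20Rik (5.26 to 8.95), Gm51571 (5.02 to 5.91), the growth factor gene Bmp7 (4.68 to 7.61), Hjurp, a chaperone of centromeric histone (4.07 to 7.03), Cdca2 and Kctd9, which share a start region (3.84 to 8.39), the repressor gene Cic (4.11 to 6.30), Gm42346 (4.29 to 5.30), the zinc finger gene Zfp317 (3.91 to 5.28) and Ppp2r1a (3.73 to 6.30). These genes take part in unlike processes, and none is in the lists of cell type markers.

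Most regions lay away from gene starts. Of the 421, 166 (39.4%) overlapped a protein-coding gene, 47 another gene only, 59 lay within 5 kb of a gene and the remaining 35.4% farther from any gene in the table. Long non-coding RNA genes were overlapped by 42 and pseudogenes by 21, and no miRNA, tRNA, snRNA, snoRNA or rRNA gene was. By class, 39.6%, 32.5%, 38.75% and 48.5% of the regions of 4, 5, 6 and 7 libraries overlapped a protein-coding gene. The shares were 44.3% for regions of 1 library, 43.2% for 3 and 34.5% for 8. In 7 of 8 libraries the regions' intervals were inside protein-coding genes less often than the other kept intervals, at 39.1 ± 2.05% and 44.2 ± 3.03% (SD, n = 8; difference -5.10 ± 3.95 points, exact sign-flip p = 0.015625, adjusted 0.015625), and the 8 differences share regions here too. sgRosa 2 was the exception, with 42.5% and 41.7%. With the strongest 50% of each kept list the difference was -3.09 points (exact sign-flip p = 0.08594), and with q under 0.05 required -1.39 points (exact p = 0.3047). Between the groups the means were 38.5 ± 2.11% (sgNr2f2) and 39.6 ± 2.15% (sgRosa), a difference within the spread (SD, n = 4 libraries a group; exact permutation p = 0.5429, adjusted 0.6786).

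The regions were crowded. Only 199 had no other of the 421 within 50 kb, while 222 formed 46 runs, and 13 runs of 5 or more held 128 regions (30.4%). Regions in all 8 libraries were close by: 28.6%, 38.6%, 41.3% and 45.5% of the regions of 4, 5, 6 and 7 libraries lay within 50 kb of one, against 6.88% of those of 3. Regions before 4 Mb of a chromosome, next to its centromere, numbered 56 (13.3%), against 0.628% of the regions of 1 library, 2.4% of 3 and 26.5% of 8.

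Chromosome 4 held 93 of the 421 regions (22.1%), against 6.24% of the other regions, while chromosome 13 had 35, chromosome 17 30 and chromosome 18 only 4. Of the 93, 68 lay in chr4:145408686-147794455, a stretch of 2.39 Mb with many zinc finger genes of the Zfp name series. Genes of this kind encode DNA-binding repressors, many of which silence transposable elements, and they arose by repeated duplication, so that neighbouring copies share sequence. The stretch held 14.1%, 14.5%, 21.3% and 18.2% of the regions of 4, 5, 6 and 7 libraries, against 0.184% of 1, 3.84% of 3 and 7.17% of 8. Its 68 regions were detected in 43, 49, 47 and 47 cases by sgNr2f2 1 to 4 and in 54, 41, 43 and 30 cases by sgRosa 1 to 4, fewest in sgRosa 4, with a median −log10 p of 5.27 over intervals. Overlap with protein-coding genes was seen for 36 of them.

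Some of the longest runs lay in this zinc finger gene stretch, and others lay elsewhere. The first, chr4:147334944-147611830, held 30 regions and 7 regions of all 8 libraries, over Zfp978, Zfp982 and Zfp985. The third, chr4:146435140-146541246, held 16 over Zfp981, Zfp992 and Zfp993. Between them in rank was chr13:12764897-12939898, with 17 regions of which none overlapped a protein-coding gene, next to the prolactin family genes Prl2c2 and Prl2c3. The run chr11:3112289-3194298 held 10 regions and 9 regions of all 8 libraries, over Sfi1 and its surroundings. The runs chr4:3225905-3253740 and chr8:71819384-71859623 (over Gm5373) held 8 each.

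Inside these runs neighbouring regions differed in which libraries had them. Of the genes, Zfp978 had the most regions inside (9), followed by Sfi1 and Zfp993 with 8 each and Gm5373 and Zfp982 with 7 each. At Zfp978, chr4:147350450-147350953 was in 7 libraries (all but sgRosa 4), chr4:147390041-147390457 in 1 sgNr2f2 and 4 sgRosa libraries, and chr4:147346781-147347130 in 3 sgNr2f2 libraries and 1 sgRosa library. At Zfp982, chr4:147518793-147519974 was in 3 sgNr2f2 and 4 sgRosa libraries, and chr4:147520018-147520431, which begins right after it, in 4 and 1. Zfp982 also held the region of 0 and 4, and Zfp993 one of 4 and 2. Single genes therefore had regions that leaned to either group.

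Of the 20661 autosomal protein-coding genes, 163 (0.789%) had one of the regions inside or within 5 kb, and these were longer than the rest (median 38.5 and 17.3 kb). Zfp genes had one in 17 of 388 cases (4.38%), 12 of them on chromosome 4, from 47 regions of which 39 were on chromosome 4. Besides those already named these included Zfp600, where chr4:146173946-146174349 was in 3 sgNr2f2 and 4 sgRosa libraries. Vomeronasal receptor genes, which encode pheromone receptors, had one in 3 of 354 (0.847%): Vmn2r114 (7 libraries), Vmn2r129 and Vmn2r102 (6 each). Of 1104 olfactory receptor genes only Olfr478 did (0.0906%). No test was made of any of these shares against the 0.789% of all genes.

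Markers of brain cell types and genes of the stress response were read beside the share of all genes, 0.789%. Of 74 autosomal markers in 7 lists of cell types, 2 had a region, both among the 34 of the neuronal lists. They were Syt1, the calcium sensor of synaptic vesicle release, and Erbb4, the neuregulin receptor of many GABAergic interneurons. Both genes are long (513 and 1077 kb), and the part of length was not tested. At Syt1, chr10:108541242-108541418 was strong where detected, with a −log10 p of 6.30 and 12.9 in sgNr2f2 2 and 3 and 7.65 and 14.7 in sgRosa 1 and 4. At Erbb4, chr1:68979408-68980404 was weak, with 3.73 and 4.08 in sgNr2f2 2 and 4 and 4.46 and 3.33 in sgRosa 1 and 2. No marker of the other 5 lists had one: glutamatergic neurons (10 genes), astrocytes (10), oligodendrocytes (10), microglia (10), and vascular and ependymal cells (10). With 2 genes among 74, the regions are no check of the labelled cell type.

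No region was found at 25 glutamate receptor genes, 14 GABA receptor genes, 20 early genes of neuronal activity, 16 genes of stress hormone signalling, or Nr2f2 and its relatives (14 genes), nor at genes of proteasome subunits (50), the respiratory chain (93), histones (81) or chaperones (84). At the share of all genes, 0.789%, a list of any of these sizes can well hold no gene with a region, so a count of 0 says little. The glutamate and GABA receptor genes are longer (median 319 and 115 kb) than all genes (17.5 kb), and that share does not allow for length. The 1 match in the list of 94 ribosomal protein names, Rps6ka5, encodes a kinase and is there by its name. Adhesion and guidance genes, most of them very long (median 969 kb), had a region in 3 of 27 cases. At Cdh12, a cadherin gene, chr15:21114867-21115084 was in 7 libraries, with 5.62, 19.9 and 31.5 in sgNr2f2 2 to 4 and 15.3, 15.8, 18.8 and 15.03 in sgRosa 1 to 4, and sgNr2f2 1 had no peak there. At Pcdh9, a protocadherin gene, chr14:93539355-93539533 had 9.30 and 14.7 in sgNr2f2 2 and 4 and 9.08, 13.6 and 15.03 in sgRosa 1, 3 and 4. At Csmd1, chr8:16123292-16123930 had 3.54, 8.51 and 3.80 in sgNr2f2 1, 2 and 4 and 3.84 in sgRosa 4. Of all 215 autosomal protein-coding genes over 500 kb, 11 (5.12%) had a region inside. The difference between these shares was not tested.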

How the data were processed

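ATAC-seq peak lists of 8 libraries (4 sgNr2f2, 4 sgRosa, grouped by sample title) were used. The submitters' processing notes name the mm10 build, the peak caller MACS2 2.2.9.1 and, in no stated order, HOMER 4.10, DiffBind 3.10.0, Picard, MultiQC 1.11, fastp 0.23.2 and FastQC 0.11.9; the aligner and calling options are not given in the sources used here. Each deposited line holds the authors' score, fold enrichment over background, −log10 p and −log10 q of a peak called in 1 library. The fold enrichment and −log10 p are the peaks' own values and served for ranking, filtering and description within a list. The deposited score was not used.

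Lines with the same interval were collapsed to the highest −log10 p, which removed 3499, on chromosomes 1 to 19 and X. Genes (20661 autosomal protein-coding) came from RefSeq; starts came from its promoter table for 16456 and either end for 4205. A check of windows of opposite strands that share bases found reverse complements in 777 of 777 pairs. Groups were compared with a two-sided exact permutation test (70 assignments), members against other intervals by exact sign flips over 8 libraries (256 flips), and ranks by limma 3.58.1 (R 4.3.3) with Benjamini-Hochberg adjustment. The code was tested on simulated data. Python 3.11.15, numpy 2.4.6, pandas 2.3.3 and matplotlib 3.10.9 were used.

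The regions, gene lists and tests were chosen with earlier results of these data known. Named are the 10 strongest regions of 7 libraries, 20 gene start regions, regions of 1 group only, the 5 largest non-overlapping differences each way, up to 4 genes per list, regions at the edges of the rule and the 5 longest runs. The place and values of 1 region are not reported here. No counting intervals are given, as depth is unknown. Alternatives were other list lengths, ranking by fold enrichment, q under 0.05, 50 bp overlap, 5 to 7 libraries, a 2 kb gene start window, each library left out, a replicate block and, chosen after seeing the data, no chromosome 4 stretch.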

Additional observations from a re-analysis of the deposited data

Results flagged for a closer look

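In sgRosa 4, a weaker peak of the full list lay at 20.9% of the regions that its kept list missed, against 4%, 4.84% and 2.14% in sgRosa 1 to 3, and its gap to the nearest of the others was large for a group of 4. This library had the longest list, 143405 intervals, against 60880 to 63648 in the other sgRosa libraries, and the highest −log10 p at the end of its kept list, 3.70. Chance flags about 1 in 20 groups, and the part of list length in the value was not tested.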

How the results depend on the processing

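Of 151 alternative values, 126 kept their direction and side of the threshold, or stayed within 1.5 times for a count. The 151 include the number detected and the median rank, for which no test is given because detection and −log10 p chose the regions. They also include the limma counts of 0, so the 126 is a count of settings and not a test. Gene start shares, members minus other intervals, kept the direction and an exact sign-flip p under 0.05 in the alternatives run. The libraries share regions, so these sign-flip p-values, and those for the share inside genes, are too small. The gene start difference of 3.88 points was 0.941 with 5 to 7 libraries, 1.78 with q under 0.05, 2.43 with the strongest 50% of each kept list, 5.83 with the full lists and 6.04 with a 2 kb window (3.59 to 4.16 without 1 library). The difference inside genes lost the threshold with the strongest 50% of each kept list (-3.09) and with q under 0.05 (-1.39), and was -5.95 to -4.23 without 1 library. Between the groups (sgNr2f2 minus sgRosa), the gene start difference of -1.96 points turned to 0.282 with q under 0.05, passed unadjusted at -1.04 with 5 to 7 libraries, and was -2.90 to -1.49 without 1 library. The median rank difference was 1.12 to 3.43, the number detected 2.58 to 27.9 and the share inside genes -1.67 to -0.0413 without 1 library. The share of missed regions found in full lists, 1.14 points with sgNr2f2 4 fixed at 0 and 4.18 without it, turned to -1.58 with 5 to 7 libraries and was -2.49 to 5.45 without 1 library, negative without sgNr2f2 1 (-2.49), sgRosa 1 (-0.184) and sgRosa 3 (-0.803). Non-overlapping regions higher in sgNr2f2 were 6 with 5 to 7 libraries and 12 to 19 without 1 library. Those lower were 3 with the strongest 50%, 1 with q under 0.05, 3 with 5 to 7 libraries and 9 to 13 without 1 library, where fewer values must separate. The cause of the other changes was not tested. limma called 0 of the 421 regions under every alternative run and 0 without each library; with regions of all 8 libraries only, no region of 4 to 7 is left. The same replicate numbers do not pair libraries (correlation of deviations -0.100, -0.0416, -0.0168 and 0.0851), and with a replicate block limma called 0 of 182. The limma fits leave missing intervals out, so their lack of calls does not show equal strength. Depth is unknown, so a missing interval is not shown to be closed chromatin.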
